A study of Mus musculus with 32 samples.

Results

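Satb1, Papss1, Tbc1d4, A630023P12Rik, Dusp2 and Gpaa1 are 6 of the 53465 genes in a count table of sorted mouse spleen B-lineage cells, which covers naive, dark zone, light zone and plasma cells. They were chosen by measured values, namely a low unadjusted p between aPIK3CD and WT libraries in dark zone cells. For Satb1 and Papss1 the choice also used a difference in the same direction in plasma cells. In aPIK3CD dark zone cells Papss1, Dusp2 and Gpaa1 were higher than in WT, and Satb1, Tbc1d4 and A630023P12Rik were lower. These dark zone differences, and the plasma cell differences of Satb1 and Papss1, are given as a description with no test, because they made the choice. No limit on p is stated for it. Ordered by p, the 6 genes stood at places 1, 3, 5, 11, 12 and 13 of the 9539 genes tested in dark zone cells.

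The aPIK3CD mice carried aPIK3CD, which the series title describes as activated PI3K-delta signalling, together with AID-cre. The WT mice carried AID-cre alone. The labels do not say how the aPIK3CD allele is built. AID-cre is a recombinase that acts in activated and germinal centre B cells. All mice were C57BL/6, 12 weeks old, and had received NP-CGG in alum by intraperitoneal injection 14 days before their spleens were sorted. Each library was made from 500 sorted cells with the SMART-Seq v4 kit, and each of the 8 groups has 4 libraries. Nothing in the labels says that replicates were separate mice, so p-values measure only the spread between these libraries.

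PI3K-delta is the leukocyte phosphoinositide 3-kinase that signals below the B cell receptor. Its lipid product recruits the kinase AKT, which inactivates FOXO transcription factors and phosphorylates TBC1D4, a brake on the movement of membrane vesicles. Germinal centre B cells divide and mutate their antibody genes in the dark zone, where FOXO1 is active, and are selected in the light zone. The other genes have separate known roles. SATB1 folds chromatin at AT-rich DNA, PAPSS1 makes the sulfate donor PAPS, DUSP2 is a nuclear phosphatase that switches off MAP kinases, and GPAA1 is a subunit of the GPI transamidase. A630023P12Rik is annotated as a long intergenic noncoding RNA, and no role is stated for it here.

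Total counts per library ran from 473149 to 2820830 for 31 libraries, and dark zone WT replicate 3 had 25797. In that shallow library 1 count is worth 34.1 CPM, a count scaled to the TMM-normalized library total, and 3 counts are worth 102 CPM. Dark zone WT means below therefore rest on the other 3 libraries, while the log2 fold changes use all 4 and are also given without it. In the 4 libraries titled aPIK3CD replicate 1 the genotype field reads AID-cre WT, so every fit was repeated with them counted as WT or left out. The sorted populations carried their markers. The 9 dark zone markers summed to 3000 to 3130 CPM in aPIK3CD and 3010 to 3150 CPM in WT dark zone cells. The 11 plasma cell markers summed to 20700 to 22800 CPM in aPIK3CD and 20300 to 25000 CPM in WT plasma cells, against 2000 to 2860 CPM and 1960 to 2320 CPM in light zone cells of the same genotypes. Dendritic cell markers, 9 genes, summed to 256 to 307 CPM in aPIK3CD and 345 to 347 CPM in WT dark zone cells, and to 1250 to 1310 CPM in aPIK3CD and 1380 to 1820 CPM in WT plasma cells. That list includes Bst2, which was also listed among GPI-anchored proteins of B and plasma cells. Bst2 alone held 213 ± 49.6 CPM in aPIK3CD and 308 ± 44.8 CPM in WT plasma cells. Siglech and Clec9a were at 0 in dark zone cells of both genotypes, the shallow library left out. Erythroid and platelet markers, also 9 genes, summed to 26.7 to 52.2 CPM in aPIK3CD and 60.3 to 77.8 CPM in WT dark zone cells. In plasma cells they summed to 10.9 to 279 CPM in aPIK3CD and 2.26 to 34.1 CPM in WT. NK cell markers summed to 3.26 to 143 CPM in aPIK3CD and 0.648 to 8.83 CPM in WT dark zone cells. Whether such cells were present, and their part in the dark zone and plasma cell differences below, was not tested. In bulk libraries fewer cells carrying a transcript and less of it per cell cannot be told apart.

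Satb1 (ENSMUSG00000023927), known for organizing chromatin in developing T cells and also made by resting B cells, was lower in aPIK3CD dark zone cells and in aPIK3CD plasma cells. In dark zone cells it measured 15.3, 24.5, 15 and 11.4 CPM in aPIK3CD, against 46.1, 52.3 and 36.9 CPM in WT, with 68.1 CPM (2 counts) in the shallow library. Every aPIK3CD library was below every WT library. The log2 fold change was -1.49 (SE 0.35), and -1.45 without the shallow library. Plasma cells gave 28.0, 36.2, 29.9 and 37.5 CPM in aPIK3CD and 67.9, 130, 59.6 and 106 CPM in WT, again without overlap (log2 fold change -1.48, SE 0.30). Over the alternatives the plasma cell value ran from -1.66 to -1.16, the smallest with aPIK3CD replicate 1 counted as WT. In the 2 populations that the choice did not use, the groups overlapped. Naive B cells held 238 to 275 CPM in aPIK3CD and 157 to 280 CPM in WT (log2 fold change 0.23, 95% interval -0.08 to 0.54, edgeR adjusted p = 1). Light zone cells held 15.9, 37.6, 47.3 and 25.6 CPM in aPIK3CD and 38.7, 27.2, 41.8 and 42.5 CPM in WT (-0.25, interval -0.88 to 0.37, edgeR adjusted p = 0.88).

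T cells also make Satb1, so T cell transcripts are given beside it. The 16 T cell markers summed to 793, 1190, 803 and 865 CPM in aPIK3CD plasma cells and 965, 1080, 1820 and 1240 CPM in WT plasma cells, replicates 1 to 4. The 6 CD3 chains and T cell receptor constant genes among them summed to 322, 364, 341 and 238 CPM in aPIK3CD and 213, 278, 697 and 258 CPM in WT. WT replicate 3 had the highest of these sums and 59.6 CPM of Satb1, and without it the Satb1 difference was -1.66. In dark zone cells the 16 markers summed to 286 to 386 CPM in aPIK3CD and 230 to 257 CPM in WT. The 6 CD3 chains and T cell receptor constant genes overlapped there, at 11.4 to 49.4 CPM in aPIK3CD and 4.54 to 61.1 CPM in WT. Of the 16, Cd8a and Cd8b1 were at 0 in every aPIK3CD dark zone library. The part of T cells in the Satb1 differences was not tested.

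Between populations, which the choice did not use, Satb1 followed a wide range. Averaged over both genotypes, it fell in dark zone cells to 28.8 ± 16.4 CPM (SD, n = 7), against 236 ± 40.9 CPM in naive B cells (n = 8). The log2 fold change was -3.10 (SE 0.20, edgeR adjusted p = 7.75e-15), and 59.4% of all 11736 genes passed in that comparison. Light zone cells held 34.6 ± 10.6 CPM (n = 8), lower than naive cells (-2.77, edgeR adjusted p = 2.71e-14) and not called against the dark zone (0.34, interval -0.05 to 0.72). Plasma cells held 61.9 ± 37.8 CPM (n = 8) and were higher than light zone cells (0.65, edgeR adjusted p = 0.00519, not passed at 0.55 with aPIK3CD replicate 1 counted as WT) and dark zone cells (0.99, edgeR adjusted p = 0.00014). These averages pool genotypes that differ. In aPIK3CD, Satb1 held 32.9 ± 4.63 CPM in plasma cells, 31.6 ± 13.8 CPM in light zone and 16.6 ± 5.58 CPM in dark zone cells. In WT it held 90.8 ± 32.9 CPM in plasma cells, 37.6 ± 7.10 CPM in light zone and 45.1 ± 7.72 CPM in dark zone cells. Naive cells were highest in both genotypes. The means of the other 3 populations were not in the same order in the 2, which restates the dark zone and plasma cell values that made the choice. WT dark zone and light zone libraries overlapped, as did aPIK3CD plasma cell and light zone libraries.

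Of the 13 genes of the SATB family and of SATB1 partner proteins, 12 were tested in dark zone cells, and the 11 other than Satb1 had a median log2 fold change of -0.09 against 0.01 over all genes. After Satb1, the smallest p in dark zone cells belonged to the NuRD subunit Mta2 (0.67, SE 0.22, edgeR adjusted p = 0.427). In plasma cells the acetyltransferase Ep300 measured 69.3 to 82.6 CPM in aPIK3CD and 87.4 to 134 CPM in WT (-0.60, edgeR adjusted p = 0.0857). The remodeller Chd4 measured 35.6 to 59.1 CPM in aPIK3CD and 70.2 to 98.7 CPM in WT plasma cells (-0.73, edgeR adjusted p = 0.0872). Both sets of plasma libraries were apart, yet edgeR called neither gene. In that comparison 1809 of 7771 genes had an edgeR unadjusted p under 0.05, and the share of all genes with libraries apart was not counted.

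**Figure D1:**
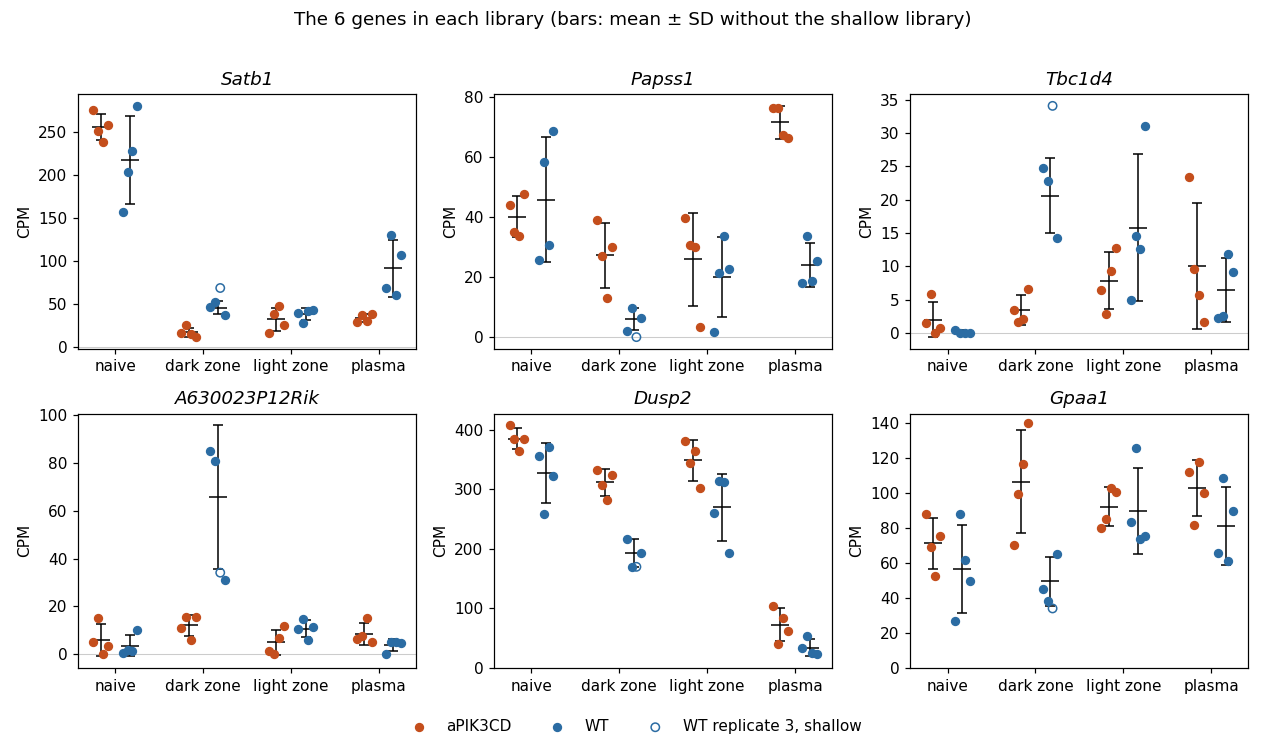
CPM of the 6 genes (y axes) in every library, with populations along each x axis and aPIK3CD (orange) left of WT (blue); bars are mean ± SD without the shallow dark zone WT library, which is the open circle. In the dark zone each gene's aPIK3CD points lie wholly above or below the WT points, and Satb1 and Papss1 are apart in plasma cells too. These contrasts chose the genes, so the separation is a description only, and the share of all genes apart in this way was not counted.

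Papss1 (ENSMUSG00000028032), which makes the activated sulfate PAPS that Golgi sulfotransferases use, was higher in aPIK3CD dark zone and plasma cells. Dark zone libraries gave 39.1, 26.9, 13 and 30 CPM in aPIK3CD (79, 33, 19 and 50 counts), against 2.13, 9.57 and 6.48 CPM in WT (3, 13 and 10 counts). The shallow WT library had 0 counts, which allows up to 102 CPM. The log2 fold change was 2.18 (SE 0.52), and 2.17 without the shallow library. In plasma cells it measured 76.3, 76.3, 67.4 and 66.4 CPM in aPIK3CD and 18.1, 33.8, 18.7 and 25.3 CPM in WT (log2 fold change 1.56, SE 0.28). These groups were far apart, and the aPIK3CD libraries differed little among themselves. Over the alternatives the value ran from 0.97, with aPIK3CD replicate 1 counted as WT, to 1.77.

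In light zone cells Papss1 varied too widely within each genotype to compare. It measured 39.6, 30.6, 29.9 and 3.48 CPM in aPIK3CD and 1.87, 21.5, 33.8 and 22.8 CPM in WT. Each genotype thus had 1 library near 0, and the log2 fold change was 0.34 (interval -0.89 to 1.57, edgeR adjusted p = 0.92). It turned to -0.05 without WT replicate 1 and to -0.17 with aPIK3CD replicate 1 counted as WT. Naive B cells held 33.6 to 47.8 CPM in aPIK3CD and 25.6 to 68.7 CPM in WT (-0.21, interval -0.85 to 0.44, edgeR adjusted p = 1).

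Pooled over genotypes, Papss1 averaged lowest in the dark zone, with 18.2 ± 13.8 CPM (n = 7), against 43.0 ± 14.8 CPM in naive B cells (SD, n = 8). This fall of 1.74 on the log2 scale had an SE of 0.39 (edgeR adjusted p = 0.000329). Light zone cells, at 23.0 ± 13.8 CPM, were also lower than naive cells (-0.91, edgeR adjusted p = 0.0252), and 56.5% of all genes passed there. That call was lost without WT replicate 2 (-0.86), WT replicate 4 (-0.80) or aPIK3CD replicate 4 (-0.68), and when aPIK3CD replicate 1 was counted as WT (-0.90). Plasma cells held 47.8 ± 26.1 CPM and exceeded dark zone cells (1.68, edgeR adjusted p = 0.000879). Against light zone cells the rise was 0.85 (edgeR adjusted p = 0.0498, and 0.056 without the shallow library), and it passed without aPIK3CD replicate 1 or WT replicate 3 but not without any other replicate number of a genotype. Against naive cells plasma cells differed by -0.06 (interval -0.77 to 0.65, edgeR adjusted p = 0.904). Light and dark zone cells were not separated (0.82, edgeR adjusted p = 0.222). By genotype, aPIK3CD cells held 27.2 ± 10.8 CPM in the dark zone and 25.9 ± 15.6 CPM in the light zone. WT cells held 6.06 ± 3.74 CPM in the dark zone and 19.99 ± 13.3 CPM in the light zone.

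Sulfation needs PAPS to be made, carried into the Golgi and used there, and the genes of these steps were read alongside. Of 8 genes for PAPS synthesis, transport and breakdown, 6 were tested in plasma cells. Papss1 was chosen on this contrast, and the other 5 had a median log2 fold change of 0.35 against -0.00 over all genes, with none called. The PAPS carrier Slc35b2 measured 220 to 275 CPM in aPIK3CD and 166 to 215 CPM in WT plasma cells (0.35, SE 0.14, edgeR adjusted p = 0.157). Slc35b3, the second PAPS carrier, had 138 ± 33.6 CPM in aPIK3CD and 91.9 ± 13.8 CPM in WT (SD, n = 4; 0.55, edgeR adjusted p = 0.117). Bpnt1, which breaks down the spent co-product, differed by 0.76 (edgeR adjusted p = 0.174) and Impad1, its Golgi relative, by -0.57 (edgeR adjusted p = 0.251). The 7 genes tested in the dark zone other than Papss1 had a median of 0.33, Slc35b2 having 0.48 (edgeR adjusted p = 0.678) and Slc35b3 -0.38. The second synthase Papss2 was scarce, with group means from 0.0792 to 9.80 CPM. It rose in dark zone over naive cells (3.49, edgeR adjusted p = 0.0012), in the direction opposite to Papss1.

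Of 18 Golgi sulfotransferases, 10 were tested in plasma cells and 1 passed. Tpst1, which sulfates tyrosines of secreted and surface proteins, rose to 727 ± 92.3 CPM in aPIK3CD plasma cells, against 410 ± 75.1 CPM in WT as mean ± SD over 4 libraries each. These spanned 620 to 843 CPM in aPIK3CD and 304 to 478 CPM in WT, without overlap. The rise was 0.79 on the log2 scale (SE 0.15, edgeR adjusted p = 0.0219). This call was lost with aPIK3CD replicate 1 counted as WT (0.46), in a single fit of all libraries (0.82), and without WT replicate 2 (0.68) or aPIK3CD replicate 2 or 3 (0.79 and 0.80). The other tyrosine sulfotransferase, Tpst2, had 414 ± 29.6 CPM in aPIK3CD and 351 ± 58.4 CPM in WT plasma cells (0.21, edgeR adjusted p = 0.408). Tpst1 also rose in plasma cells over light zone cells of both genotypes together (1.962), as did Tpst2 (3.54), and 8 of 15 sulfotransferases tested rose and 4 fell there. Over all genes 64.2% passed in that comparison.

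**Figure D2:**
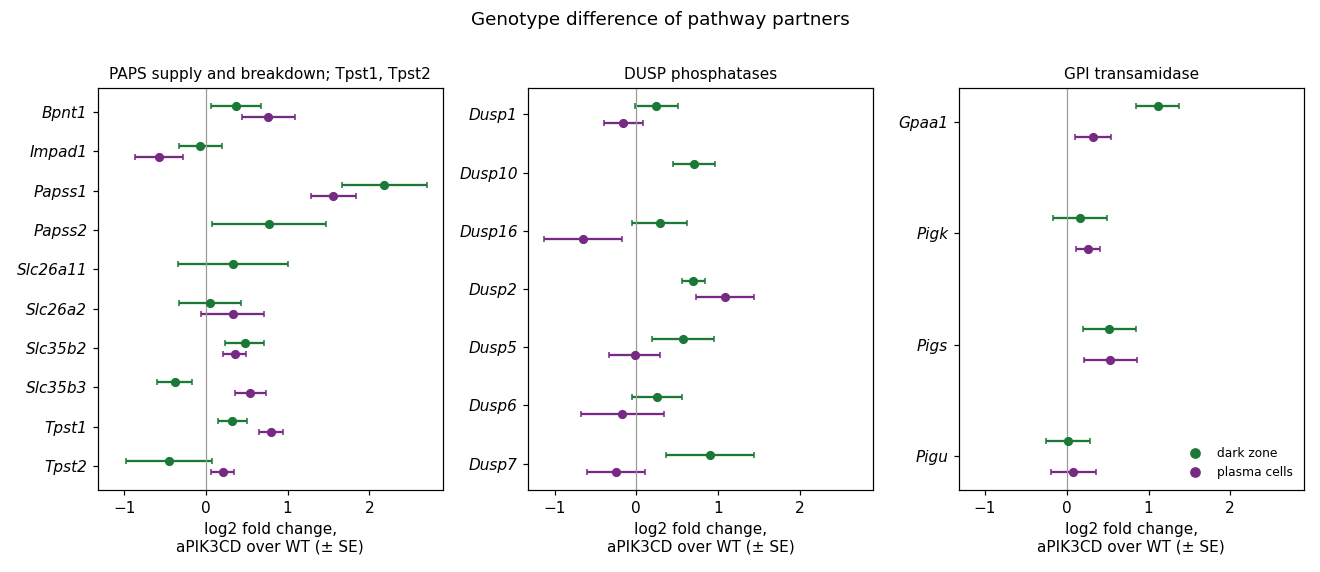
Log2 fold change (x axis) of aPIK3CD over WT, with bars of 1 SE, in dark zone (green) and plasma cells (purple), for genes of PAPS supply with the tyrosine sulfotransferases, for dual-specificity phosphatases and for GPI transamidase subunits. Papss1, chosen on both contrasts, is the farthest to the right of its group, at 2.18 and 1.56, and nothing is read from that place. The dark zone points of Dusp2, chosen on that contrast, and of the other 6 phosphatases lie right of 0. Gpaa1 was also chosen on the dark zone contrast.

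Tbc1d4 (ENSMUSG00000033083) encodes a RAB GTPase-activating protein that AKT phosphorylates, best known from insulin-driven glucose uptake in muscle and fat. It was a low-count gene and lower in aPIK3CD dark zone cells. They gave 3.46, 1.63, 2.04 and 6.59 CPM (7, 2, 3 and 11 counts), against 24.8, 22.8 and 14.3 CPM (35, 31 and 22 counts) in WT and 1 count in the shallow library. No aPIK3CD library reached the lowest WT library. The log2 fold change was -2.55 (SE 0.54), and -2.52 without the shallow library. In light zone cells the libraries overlapped, with 6.49, 2.78, 9.34 and 12.8 CPM in aPIK3CD and 4.99, 14.6, 12.6 and 31.1 CPM in WT (-0.96, interval -2.07 to 0.15, edgeR adjusted p = 0.768). Plasma cells had 1 to 15 counts in aPIK3CD and 1 to 7 in WT, and naive cells 0 to 15 and 0 to 1, so the filter on low counts left Tbc1d4 untested there.

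With the genotypes pooled, Tbc1d4 was higher in dark zone, light zone and plasma cells than in naive cells. Pooled over genotypes, which differed in the dark zone, it averaged 10.8 ± 9.88 CPM in dark zone cells (n = 7) and 1.06 ± 1.99 CPM in naive B cells (n = 8), and rose by 3.85 on the log2 scale (SE 0.68, edgeR adjusted p = 1.25e-05). Light zone cells, at 11.8 ± 8.82 CPM, rose by 4.20 over naive cells (edgeR adjusted p = 2.45e-06) and plasma cells, at 8.28 ± 7.19 CPM, by 3.78 (edgeR adjusted p = 2.23e-05). Over all genes 61.5% passed between plasma and naive cells. Pooled in this way, dark zone, light zone and plasma cells were not told apart from each other, with differences of 0.35, -0.42 and -0.07. Their means ran in opposite orders in the 2 genotypes. Dark zone, light zone and plasma cells held 20.6, 15.8 and 6.50 CPM in WT, and 3.43, 7.85 and 10.05 CPM in aPIK3CD. WT plasma cell libraries, at 2.26 to 11.9 CPM, lay below the WT dark zone libraries, while the aPIK3CD libraries of these populations overlapped. By genotype, WT libraries spanned 0 to 0.484 CPM in naive and 14.3 to 24.8 CPM in dark zone cells. In aPIK3CD the libraries overlapped, with 0 to 5.83 CPM in naive and 1.63 to 6.59 CPM in dark zone cells. The naive WT libraries had 1, 0, 0 and 0 counts, so the size of the rise depends on very few reads.

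Its relative Tbc1d1 was more abundant. In dark zone cells it measured 171 ± 16.8 CPM in aPIK3CD and 165 ± 9.999 CPM in WT (n = 4 and 3; 0.07, SE 0.16, edgeR adjusted p = 0.942). Of 15 genes for TBC1D4 relatives, its RAB substrates and glucose transporters, 11 were tested in dark zone cells, and the 10 other than Tbc1d4 had a median of -0.03. After Tbc1d4 the smallest p belonged to Rab8b and Rab10, small GTPases that TBC1D4 acts on, with log2 fold changes of 0.35 and 0.18.

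A630023P12Rik (ENSMUSG00000048215), the noncoding RNA, was the gene with the smallest p in dark zone cells. It measured 10.9, 15.5, 6.13 and 15.6 CPM in aPIK3CD (22, 19, 9 and 26 counts), against 85.1, 81.0 and 31.1 CPM in WT (120, 110 and 48 counts). The shallow WT library had 34.1 CPM from 1 count. WT replicates 1 and 2 stood well above WT replicate 4, and all 3 stood above every aPIK3CD library. The log2 fold change was -2.41 (SE 0.39), -2.44 without the shallow library, and -2.02 to -2.71 over the alternatives. Of the 9539 genes tested in dark zone cells edgeR called 2, which is 0.021%, and A630023P12Rik was the only member among them. Without the shallow library edgeR called 0 genes. Nothing is read from these counts, since this contrast made the choice.

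Outside the dark zone A630023P12Rik was scarce. Light zone cells gave 1.44, 0, 6.85 and 11.6 CPM in aPIK3CD and 10.6, 14.6, 6.04 and 11.4 CPM in WT, which overlapped (-1.04, interval -2.43 to 0.35, edgeR adjusted p = 0.779). Plasma cells had 3 to 8 counts in aPIK3CD and 0 to 3 in WT, and naive cells 0 to 39 and 1 to 25, and neither was tested. By genotype the dark zone held 12.0 ± 4.50 CPM in aPIK3CD and 65.8 ± 30.1 CPM in WT (n = 4 and 3). Averaged over genotypes, it held 35.0 ± 33.7 CPM (n = 7), against 4.69 ± 5.32 CPM in naive B cells (n = 8). The rise was 2.58 (SE 0.57, edgeR adjusted p = 0.000223). From the dark zone it fell in light zone cells, at 7.81 ± 5.16 CPM (-1.89, SE 0.56, edgeR adjusted p = 0.0273). It was the only 1 of the 6 genes called between the zones, where 9.48% of all genes passed. That call was lost without WT replicate 1, 2 or 3 (-1.77, -1.89 and -1.82), without aPIK3CD replicate 1 or 2 (-1.77 and -1.62), and when aPIK3CD replicate 1 was counted as WT (-1.75). Fitting each replicate number within a genotype as a block ended the call too. Plasma cells, at 6.11 ± 4.20 CPM, were lower than the dark zone (-2.27, edgeR adjusted p = 0.00291), where 65.3% of all genes passed.

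The genes next to A630023P12Rik in GENCODE M21 are Gm42596 and Gm32996 on one side and Galnt9 and Noc4l on the other. Galnt9 had at most 4 counts in a library. Noc4l, a ribosome assembly factor read from the opposite strand, held 131 ± 29.1 CPM in aPIK3CD dark zone cells and 88.4 ± 30.1 CPM in WT (n = 4 and 3). Its log2 fold change was 0.52 (SE 0.24, edgeR adjusted p = 0.654), opposite in sign to that of the noncoding RNA. Whether the counting used strand is not stated in the labels. No other gene model overlaps A630023P12Rik, Dusp2 or Gpaa1, while Satb1 shares exonic bases with other models. These are 156 bases with Gm36931 on the same strand, which had at most 14 counts in a library, and 128 with Gm6934 on the opposite strand, which had at most 19.

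The promoters of Tbc1d4 and A630023P12Rik are shown because both RNAs were lower in aPIK3CD dark zone cells, and that of Dusp2 because it holds a searched motif. They are the RefSeq windows on GRCm38.p6, 250 bases before to 50 after the start, written 5′ to 3′ in the direction of transcription, with motif matches in capitals. RefSeq windows were found for 5 of the 6 genes.
Tbc1d4 promoter, chr14:101609142-101609441, minus strand: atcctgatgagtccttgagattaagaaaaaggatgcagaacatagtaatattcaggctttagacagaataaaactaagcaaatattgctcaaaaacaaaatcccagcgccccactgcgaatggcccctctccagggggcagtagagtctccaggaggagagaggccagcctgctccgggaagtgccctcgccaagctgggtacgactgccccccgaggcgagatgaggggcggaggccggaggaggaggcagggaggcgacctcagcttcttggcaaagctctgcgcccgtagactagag
A630023P12Rik promoter, chr5:110514673-110514972, plus strand: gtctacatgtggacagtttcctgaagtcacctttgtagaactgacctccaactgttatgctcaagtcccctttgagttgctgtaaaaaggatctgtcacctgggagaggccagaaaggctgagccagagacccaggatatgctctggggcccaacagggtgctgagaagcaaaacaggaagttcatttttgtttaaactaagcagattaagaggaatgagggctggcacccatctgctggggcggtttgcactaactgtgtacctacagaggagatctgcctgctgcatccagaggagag
Dusp2 promoter, chr2:127335909-127336208, plus strand: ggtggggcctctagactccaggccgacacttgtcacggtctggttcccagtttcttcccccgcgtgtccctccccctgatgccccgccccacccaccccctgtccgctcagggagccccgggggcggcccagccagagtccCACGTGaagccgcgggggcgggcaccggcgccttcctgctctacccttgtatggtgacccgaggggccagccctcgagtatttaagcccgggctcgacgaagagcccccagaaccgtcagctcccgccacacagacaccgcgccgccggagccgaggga
Both strands of all 32851 windows were searched for the FOXO site TGTTTAC and the E-box CACGTG. The FOXO letters stand in 3.65% of all windows and in none of the 10 windows of Satb1, Papss1, Tbc1d4, A630023P12Rik and Dusp2. The E-box stands in 7.15% of all windows and, among these 5 genes, in that of Dusp2. A match or its absence describes the letters of these windows and says nothing about binding.

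Dusp2 (ENSMUSG00000027368), the phosphatase, was higher in aPIK3CD dark zone cells. It gave 333, 308, 282 and 324 CPM in aPIK3CD, against 216, 170 and 193 CPM in WT, with 170 CPM from 5 counts in the shallow library. The gap between the groups exceeded the range within each (log2 fold change 0.70, SE 0.14, and 0.70 without the shallow library). With 377 to 673 counts in aPIK3CD and 231 to 304 in WT it was also the best measured of the 6. In plasma cells, which the choice of Dusp2 did not use, it measured 104, 40.1, 84.2 and 63.0 CPM in aPIK3CD and 34.0, 54.5, 25.5 and 23.0 CPM in WT. aPIK3CD replicate 2 lay below WT replicate 2, and the difference of 1.09 (SE 0.35, interval 0.40 to 1.78) had an edgeR adjusted p of 0.0953. It passed in 4 of 16 alternatives, DESeq2 among them, with a range of 0.34 to 1.39.

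The naive and light zone differences of Dusp2 had the same sign. Naive B cells held 364 to 408 CPM in aPIK3CD and 258 to 371 CPM in WT (0.24, interval 0.02 to 0.45, edgeR unadjusted p = 0.0495, adjusted p = 1). Light zone cells held 382, 345, 365 and 303 CPM in aPIK3CD and 260, 314, 312 and 194 CPM in WT (0.35, interval 0.08 to 0.62, edgeR unadjusted p = 0.0242, adjusted p = 0.706). Neither passed. Over populations Dusp2 was high in B cells and low in plasma cells, at 356 ± 46.8 CPM in naive (n = 8), 261 ± 66.6 in dark zone (n = 7), 309 ± 60.3 in light zone and 53.6 ± 29.0 CPM in plasma cells (n = 8 each). The dark zone mean of Dusp2 pools 311 ± 22.4 CPM in aPIK3CD and 193 ± 22.8 CPM in WT. Dusp2 comparisons between populations are averaged over genotypes. Dusp2 fell in plasma cells relative to light zone cells by 2.63 on the log2 scale (SE 0.15, edgeR adjusted p = 2.57e-16), and in dark zone relative to naive cells by 0.54 (SE 0.13, edgeR adjusted p = 0.000538). Light over dark zone cells gave 0.33, which edgeR did not call (adjusted p = 0.102), while DESeq2 (adjusted p = 0.0371) and limma voom (adjusted p = 0.00568) did. The adjusted p ran to 0.452 over the alternatives.

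Dusp2 belongs to the dual-specificity MAP kinase phosphatases, several of which MAP kinase signalling itself induces. Of 10 such genes 7 were tested in dark zone cells, where Dusp2 itself was chosen. The other 6 all had a positive log2 fold change, with a median of 0.43 against 0.01 over all genes, and none passed. Dusp10, which acts on p38 and JNK, measured 81.3 ± 16.6 CPM in aPIK3CD and 50.7 ± 13.3 CPM in WT dark zone cells (n = 4 and 3; 0.70, SE 0.26, edgeR adjusted p = 0.512). Dusp5 measured 27.3 ± 2.51 CPM in aPIK3CD and 18.8 ± 5.65 CPM in WT (0.57, edgeR adjusted p = 0.777), and Dusp7, 10.7 ± 2.85 CPM in aPIK3CD and 5.83 ± 3.55 CPM in WT (0.90, edgeR adjusted p = 0.743). Dusp1, Dusp6 and Dusp16 differed by 0.25 to 0.28. In plasma cells only Dusp2 of 6 tested had a positive value, and the median was -0.17. Dusp6, the ERK phosphatase, measured 20.97 ± 13.4 CPM in aPIK3CD and 23.9 ± 10.6 CPM in WT plasma cells (-0.17, edgeR adjusted p = 0.87).

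Immediate early genes, the rapid targets of MAP kinase signalling, were read alongside. Of 17 ERK and immediate early genes 7 were tested between genotypes in dark zone cells, 6 had a positive value, and the median was 0.60. The 7 light zone markers tested in the same contrast also all had positive values, with a median of 0.25. Egr1 and Egr2 belong to both lists, so the lists are not separate observations. Of the 9 dark zone markers, 7 had positive values there, with a median of 0.11. In light over dark zone cells 11 of 13 ERK and immediate early genes had a positive value, with a median of 0.63, and 3 passed. The part of light zone cells in the phosphatase and immediate early values was not tested. In dark zone cells Ier2 measured 52.3 ± 11.2 CPM in aPIK3CD and 30.5 ± 4.16 CPM in WT (0.81, SE 0.30, edgeR adjusted p = 0.536). Fos measured 46.6 ± 11.96 CPM in aPIK3CD and 27.0 ± 8.86 CPM in WT dark zone cells (0.78, edgeR adjusted p = 0.614). Junb differed by 0.60 (SE 0.24, edgeR adjusted p = 0.583) and Egr1 by 0.67. None of these passed, as none of the other dual-specificity phosphatases did. In plasma cells the median of the 8 tested was -0.11, and the ERK gene Mapk3 had -1.14 (SE 0.37, edgeR adjusted p = 0.0986).

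Gpaa1 (ENSMUSG00000022561) encodes a subunit of the transamidase that attaches GPI anchors to proteins in the endoplasmic reticulum. It was higher in aPIK3CD dark zone cells, with 70.2, 99.6, 117 and 140 CPM in aPIK3CD, against 45.4, 38.3 and 65.5 CPM in WT, and 34.1 CPM from 1 count in the shallow library. aPIK3CD replicate 1, at 70.2 CPM, lay just above WT replicate 4, at 65.5 CPM. The log2 fold change was 1.11 (SE 0.26), and 1.10 without the shallow library. Elsewhere the genotypes overlapped. Light zone cells held 80.0 to 103 CPM in aPIK3CD and 74.0 to 126 CPM in WT (0.03, interval -0.35 to 0.41, edgeR adjusted p = 0.978). Plasma cells held 112, 82.0, 118 and 100 CPM in aPIK3CD and 65.7, 109, 61.3 and 89.7 CPM in WT (0.33, interval -0.11 to 0.76, edgeR adjusted p = 0.4). Naive B cells held 52.7 to 88.1 CPM in aPIK3CD and 27.1 to 88.0 CPM in WT (0.31, interval -0.32 to 0.93, edgeR adjusted p = 1).

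Pooled over genotypes, Gpaa1 averaged 64.0 ± 20.7 CPM in naive (n = 8), 82.3 ± 37.9 in dark zone (n = 7), 91.1 ± 17.7 in light zone and 92.3 ± 21.3 CPM in plasma cells (n = 8 each). By genotype, dark zone cells held 107 ± 29.5 CPM in aPIK3CD and 49.7 ± 14.1 CPM in WT. Light zone cells held 92.3 ± 11.3 CPM in aPIK3CD and 89.8 ± 24.4 CPM in WT. Light zone and plasma cells were each higher than naive cells (0.52 in both, edgeR adjusted p = 0.0166 and 0.0215). The light zone call was lost without WT replicate 1 (0.42) or aPIK3CD replicate 3 (0.43), and the plasma cell call without WT replicate 4 (0.44) or aPIK3CD replicate 3 (0.42) and with no filter on low counts (0.38). With DESeq2 size factors the light zone call was lost as well (0.42).

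None of the other transamidase subunits passed in dark zone cells. Pigk, the catalytic subunit, measured 49.3 ± 16.9 CPM in aPIK3CD and 43.3 ± 18.6 CPM in WT dark zone cells (n = 4 and 3; 0.16, edgeR adjusted p = 0.935). Pigs measured 50.6 ± 12.4 CPM in aPIK3CD and 36.4 ± 14.8 CPM in WT (0.52, edgeR adjusted p = 0.755), and Pigu 77.6 ± 13.97 CPM in aPIK3CD and 78.3 ± 33.1 CPM in WT (0.02). Pigt was under 10 CPM in dark zone cells and was not tested there. Between populations Pigk rose in plasma over light zone cells (2.08, edgeR adjusted p = 8.69e-13), where Gpaa1 had -0.00. The 21 tested genes for GPI anchor synthesis and remodelling had a median of -0.16 in aPIK3CD over WT dark zone cells, opposite in sign to Gpaa1. Pign and Pgap1 had the smallest p among them (-0.78 and -0.74, edgeR adjusted p = 0.487 and 0.525). The 10 tested genes for GPI-anchored proteins had a median of -0.23, with Ly6d at -0.43 (edgeR adjusted p = 0.487). In plasma cells 12 of 17 such genes rose over light zone cells and 1 fell, in a comparison where 64.2% of all genes passed.

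Compared per kilobase of exon, Dusp2 stood highest of the 6 in naive, dark zone and light zone cells, at 178, 130 and 154 CPM per kilobase. In plasma cells it held 26.7 CPM per kilobase, below Gpaa1 at 31.3. Satb1, with 19027 exonic bases, stood at 12.4 CPM per kilobase in naive and 1.51 in dark zone cells. A630023P12Rik, with 1888 exonic bases, stood at 18.6 in dark zone cells, below the 27.9 of Gpaa1. Tbc1d4 was lowest in naive cells, at 0.138.

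**Figure D3:**
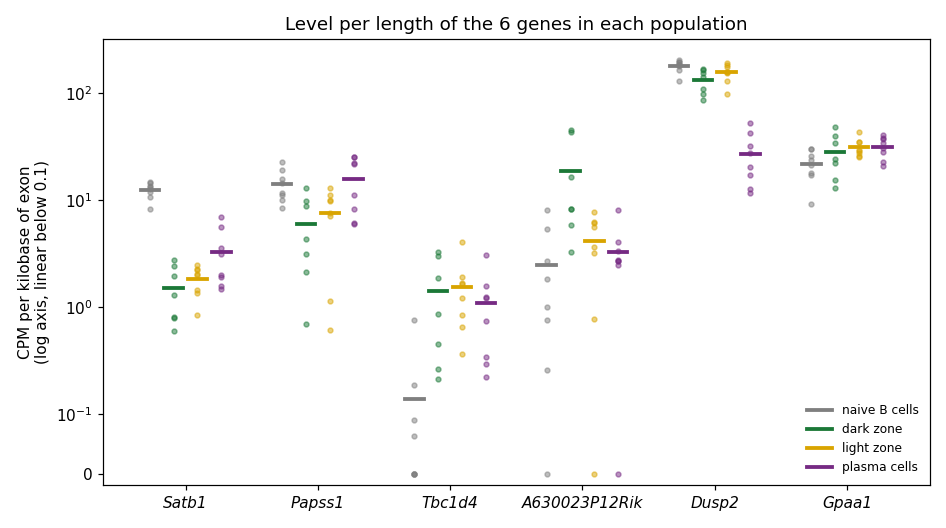
Level of the 6 genes in CPM per kilobase of exon (y axis, logarithmic above 0.1) in the 4 populations; each dot is 1 library of either genotype and each line is the mean. Satb1 drops between naive and dark zone cells, Dusp2 drops in plasma cells, and Tbc1d4 is near 0 in naive cells. The mean of A630023P12Rik over both genotypes is highest in the dark zone, though its aPIK3CD libraries overlap across populations.

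In naive B cells edgeR called 0 of the 4 members it could test, and 0% of 10421 genes. At an unadjusted p under 0.05 it had 1 member, Dusp2, and 319 genes, and DESeq2 and limma voom called 0 genes too. In light zone cells it called 0 of 6 members and 0% of 9860 genes, with 1 member, again Dusp2, and 654 genes at an unadjusted p under 0.05. DESeq2 called 7 genes there and limma voom 1, none of them a member. In plasma cells edgeR called 3.2% of 7771 genes. Of the 2 members that this contrast did not choose and that were tested, Dusp2 and Gpaa1, edgeR called 0. Dusp2 had an unadjusted p of 0.00867 there, and DESeq2 called it. Whether the dark zone differences differ from those in the other populations was not tested, since the dark zone values made the choice.

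**Figure D4:**
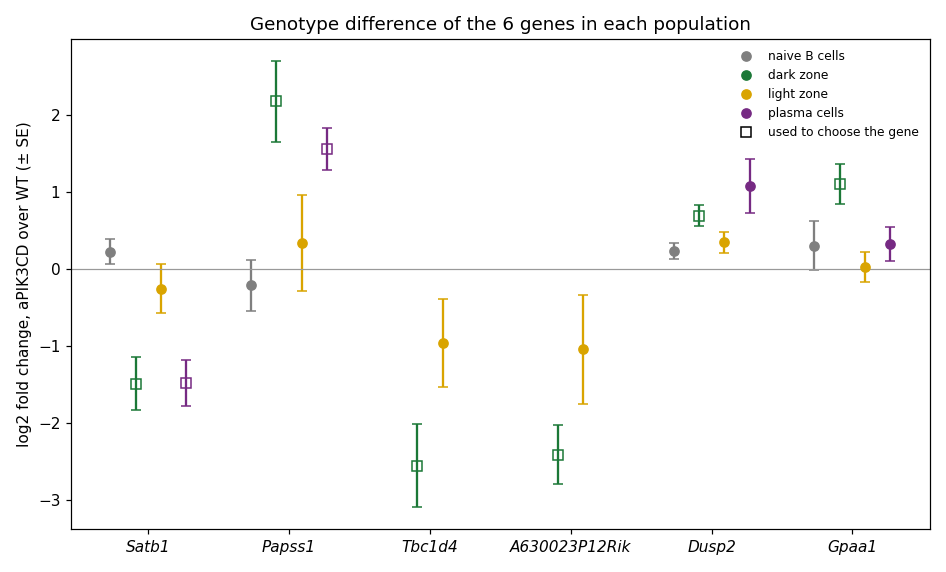
Log2 fold change of aPIK3CD over WT (y axis, bars of 1 SE) for the 6 genes in naive (grey), dark zone (green), light zone (gold) and plasma cells (purple); open squares mark the values that chose the gene, and genes left out by the filter on low counts have no point. The open squares lie farthest from 0 for Satb1, Papss1, Tbc1d4, A630023P12Rik and Gpaa1, and the light zone points lie nearer to it. A choice by low p favours large values in the contrast used, so nothing is read from this order.

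Across the lists of partner genes the genotype comparisons gave a single call. Of 123 partner genes in the table, the 6 members left out, edgeR called 0 of 87 tested in dark zone cells, with 10 at an unadjusted p under 0.05 (715 of 9539 over all genes), and DESeq2 and limma voom also called 0. It called 0 of 101 in naive and 0 of 95 in light zone cells, with 4 at an unadjusted p under 0.05 in each, as did DESeq2 and limma voom with 0. In plasma cells it called 1 of 78, Tpst1, with 16 at an unadjusted p under 0.05, where 1809 of all 7771 genes were. DESeq2 called 4 there and limma voom 1.

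Between populations, of the 6, edgeR called 5 in dark zone against naive cells (2 higher and 3 lower), 1 in light against dark zone (lower), 3 in plasma against light zone cells (2 higher and 1 lower), and 4 in each of the other comparisons (2 higher and 2 lower). The shares over all genes were 59.4%, 9.48%, 64.2%, 56.5% for light zone against naive, 61.5% for plasma against naive, and 65.3% for plasma against dark zone.

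The genes most like each member over 31 libraries are given as a description, since libraries share populations and depth. For Dusp2 they included Lcp1 and Siglecg (Pearson r of log2 CPM 0.948 and 0.947), and for Satb1 Esyt1, Add3 and Slc16a7 (0.903, 0.899 and 0.874). Papss1 was most like Ndrg3 (0.802), which held 61.1 ± 13.6 CPM in aPIK3CD and 28.5 ± 10.6 CPM in WT dark zone cells (n = 4 and 3), then Bcl10 (0.751) and Bmi1 (0.745). Tbc1d4 was most like Pdzd11 (0.762), Suco and Bmpr1a, A630023P12Rik most like Stk40 (0.731), Map3k4 and Trim2, and Gpaa1 most like Zfp513 (0.677), Zfp362 and Larp1. After the 8 group means were removed, Dusp2 was most like Pinx1 (0.774), its relative Dusp6 (0.753) and Knl1 (0.741), and Papss1 most like Tex264 (0.711), Nucb1 and Bst2. In the same residuals Satb1 was closest to Vps13d (0.678), Tbc1d4 to Gdap10 (0.65), A630023P12Rik to Ago2 (0.718) and Gpaa1 to Atf6b (0.713). Among the 15 pairs of members the highest r was that of Tbc1d4 with A630023P12Rik, 0.613 before and 0.521 after the group means were removed.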

How the data were processed

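The submitters deposited 1 table of raw read counts per gene for 32 libraries, and STAR 2.4.2a, HTSeq and Picard appear per the submitters' processing notes, with no role stated. Genome build, annotation and strandedness of counting are not given in the sources used here. All columns matched a sample title, and 0 columns of per-sample values were left out. edgeR 4.0.16 (R 4.3.3) was run on the counts as deposited, with TMM scaling, its filter on low counts (minimum count 10, minimum total 15) and the quasi-likelihood test. Each genotype comparison was fitted within its population, 8 libraries each, and the population comparisons in 1 fit of 32 libraries averaged over genotypes. P-values were adjusted by Benjamini-Hochberg over all genes tested, with a threshold of 0.05. Intervals are 95%, the estimate ± 1.96 SE. CPM values use TMM-scaled totals and means leave out the library with 25797 counts. Its depth gives a floor of 3 counts, or 102 CPM, and that floor covers counting error only, while the intervals carry the spread between libraries.

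The members and gene lists were chosen with earlier results of these data known. The genes named are the 6 members, genes of fixed pathway lists with the smallest p, the 3 genes most like each member and neighbouring genes, and a few items that this rule names are not reported here. The promoter windows are from RefSeq GRCm38.p6, and exon lengths from GENCODE M21, where 53360 of 53465 identifiers were found. The test was tried on simulated data. Deviations of same-numbered replicates were weakly correlated, at -0.0477 to 0.0783 between genotypes and -0.0464 to 0.1882 between populations. Of 48 pairs between populations 4 were over 0.1, all in aPIK3CD replicate 1 or 2. Counting error lowers such correlations, so they cannot show whether a replicate number stands for a single mouse. The population fit treats the 32 libraries as independent. Alternatives were DESeq2 1.42.0, limma 3.58.1 voom, scaling, filter, library and label changes.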

Additional observations from a re-analysis of the deposited data

Results flagged for a closer look

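A library was set apart from the other 3 of its group in 3 of the 48 groups of 4 libraries examined. The gap was more than 0.829 of the group's range, which chance gives in about 1 in 20 groups of normally distributed values. That rate does not carry over to genes with few counts, and the 3 groups are all of such genes. Tbc1d4 in naive WT cells was 0.484 CPM in replicate 1, from 1 count, and 0 in the other 3 libraries. A630023P12Rik in plasma WT cells was 0 CPM in replicate 1 and 4.6 to 5.19 CPM in the others. A630023P12Rik in naive WT cells reached 10 CPM in replicate 4, with the others at 0.484 to 1.9 CPM.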

How the results depend on the processing

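Genes called between genotypes numbered 0 in naive, 2 in dark zone, 0 in light zone and 249 in plasma cells. In naive cells a single fit of all 32 libraries gave 8. In dark zone cells DESeq2 gave 1, limma voom 0, no filter on low counts 80, leaving out immunoglobulin and T cell receptor genes 1, a single fit 4, and aPIK3CD replicate 1 counted as WT 0. In light zone cells they were 7 with DESeq2, 1 with limma voom, 66 with no filter, 2 in a single fit, and 1 with that recount. For aPIK3CD against WT in plasma cells they were 538 with DESeq2, 694 with no filter, 625 without immunoglobulin and T cell receptor genes, 147 in a single fit, and 2 with that recount. Without 1 replicate, they ranged from 0 to 0 in naive, 0 to 10 in dark zone, 0 to 1 in light zone and 15 to 243 in plasma cells. A block on the replicate numbers gave 53 in dark zone and 77 in plasma cells. The population fit used another block, on each replicate number within a genotype, and that ended the A630023P12Rik call between zones (-1.872).

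For light zone against dark zone, limma voom called 1819 genes and edgeR 1112. Without 1 replicate number, calls ranged from 6476 to 6832 for dark zone over naive, 807 to 1111 for light over dark zone, 6213 to 6456 for light zone over naive, 7307 to 7484 for plasma over dark zone, 7215 to 7326 for plasma over light zone and 6876 to 7088 for plasma over naive cells. DESeq2 size factors moved the median of all genes by -0.101 for dark zone over naive, 0.147 for plasma over light zone and 0.159 for plasma over dark zone.

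Signs turned only in uncalled log2 fold changes, and the cause was not tested. With aPIK3CD replicate 1 counted as WT, light zone Satb1 was 0.147 and Papss1 -0.171. Gpaa1 in plasma over light zone was 0.147 with DESeq2 size factors, 0.149 with DESeq2, 0.018 without immunoglobulin genes and 0.015 with the recount. Tbc1d4 in plasma over dark zone was 0.077 with DESeq2 size factors and 0.075 with DESeq2. Papss1 in plasma over naive was 0 with DESeq2, 0.019 with limma voom and 0.232 with the recount.
Without 1 replicate, the range was -0.401 to 0.044 for Papss1 between genotypes in naive B cells, -0.045 to 0.757 for Papss1 between genotypes in light zone, -0.057 to 0.238 for Gpaa1 between genotypes in light zone, -0.098 to 0.027 for Gpaa1 in plasma cells over light zone, -0.511 to 0.353 for Tbc1d4 in plasma cells over dark zone, -0.017 to 0.552 for Tbc1d4 in light zone over dark zone, -0.11 to 0.033 for Papss1 in plasma cells over naive B cells, -0.101 to 0.907 for A630023P12Rik in plasma cells over naive B cells, -0.605 to 0.117 for A630023P12Rik in plasma cells over light zone.
Tbc1d4 and A630023P12Rik had too few counts in naive and plasma cells to compare genotypes.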
